A study of Mus musculus with 2 samples.

Results

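The genes described here are the translation initiation and elongation factors of the mouse, together with the proteins that carry a factor symbol because they bind or modify one. They were taken by symbol, as all genes whose names begin with Eif followed by a digit from 1 to 6, or with Eef followed by 1 or 2, leaving out Eif2s3y and processed pseudogenes. Of 68 symbols that matched, 65 had at least 20 unique molecular identifiers (UMIs, each a counted mRNA molecule) over all deposited barcodes, out of 31053 genes in all. The genes nearest the minimum inside it were Eef1akmt3, with 55 UMIs, and Eif3j2, with 147. Outside it were Eef1a2 with 1 UMI and Eif4ebp3 and Eif4e1b with 0. In the annotation 64 of the members are protein coding and 1, Eif2c5, is a long intergenic non-coding RNA that shares only the naming pattern.

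The values came from single-cell RNA sequencing of subcutaneous B16F10 tumours, grown from a mouse melanoma cell line and collected while small. The study asked what ATF4, the main transcription factor of the integrated stress response, does in the host cells of a tumour. One library came from Atf4wt/wt hosts (WT) and 1 from Atf4D/D hosts (KO), each from 2 pooled tumours. The KO hosts carried a tamoxifen-inducible Cre (Rosa26::CreERT2) with floxed Atf4, the WT hosts carried the same Cre with unfloxed Atf4, and both received tamoxifen. Mice of both groups were 11 weeks old and of both sexes according to the labels. The Cre is active in all host tissues and the injected melanoma cells carried an intact Atf4 whatever the host, so the deletion concerned host cells only.

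Translation starts when eIF2 brings the initiator tRNA to the small ribosomal subunit, helped by eIF1, eIF1A and the large scaffold eIF3, while eIF4F (the cap-binding eIF4E, the scaffold eIF4G and the helicase eIF4A) recruits the mRNA. Stress kinases phosphorylate the alpha subunit of eIF2, which then blocks its own exchange factor eIF2B, so that general initiation slows while ATF4 is made. ATF4 is known to switch on Eif4ebp1, whose product 4E-BP1 binds eIF4E and keeps it from eIF4G unless mTORC1 phosphorylates it, and elongation is then carried by eEF1A, its exchange complex and eEF2.

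Of the members, Eef2k and Eif2s3x held in their promoters the core of the composite DNA element that ATF4 dimers bind, and these sites are shown because the host genotype concerns that factor. The letters searched were TGATGNAA and, on the other strand, TTNCATCA, in the 250 bases upstream of each RefSeq start site on build GRCm38.p6. Promoters of 51 of the 65 members were searched, Eif4ebp1 not among them, 66 promoters in all, of which 2 held the motif (3.03%), beside 1134 of all 32851 promoters (3.45%). Both sites read as the reverse motif, which is in capitals within 10 flanking bases on each side.
Eef2k: tttctgcttgTTTCATCAagctcagctt
Eif2s3x: tcgccatcatTTTCATCAggtctatgcc
The window of Eef2k, which encodes the kinase that inactivates eEF2, lies at chr7:120851095-120851122 on the plus strand, with the motif starting 84 bases before the start site. That of Eif2s3x, the X-linked gamma subunit of eIF2, lies at chrX:94212730-94212757 on the minus strand, 96 bases before it. Each of these start sites is that of a shorter transcript, and in the GENCODE annotation each window also lies within a longer transcript of the same gene and overlaps none of its exons, so that it is intronic there. Both matches are descriptions of the letters only.

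Cells were assigned to classes by gates on marker genes. After filtering, 3861 WT and 3557 KO cells remained, with median depths of 3920 and 6279 UMIs. The gates gave 188 WT and 224 KO cells like cancer-associated fibroblasts (CAF-like), 1095 and 831 macrophage-like cells, 66 and 24 endothelial-like cells, and 1733 and 1860 melanoma-like cells. Markers that were kept out of the gates were highest in their own class for all 8 CAF, 7 macrophage and 6 endothelial genes and for 5 of 6 melanoma genes, Cd63 being the exception. Median depths of WT and KO were close for CAF-like cells (3746 and 3739 UMIs), macrophage-like cells (2088 and 2067) and melanoma-like cells (11419 and 10793). They were further apart for endothelial-like cells, at 2853 and 3818.5 UMIs. Levels are given as UMIs per 1000000 UMIs of the class (CPM), so every value is a share of that class's RNA.

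Other features of the cells differed between the libraries and stand beside all results on genotype. A Y-linked UMI was found in 0 of 1095 WT macrophage-like cells, which allows a share of up to 0.274%, and in 0 of 188 WT CAF-like cells, but in 128 KO macrophage-like and 49 KO CAF-like cells, although the labels describe both pools as mixed. The summed level of 8 hypoxia genes was 469 CPM in WT and 1116 CPM in KO CAF-like cells, 390 and 615 CPM in macrophage-like cells, and 373 and 456 CPM in melanoma-like cells. Cells with UMIs of at least 2 of 12 cycling genes made up 38.3% of WT and 25.9% of KO CAF-like cells, 24.0% and 19.4% of macrophage-like cells, and 90.1% and 82.5% of melanoma-like cells. Melanoma markers took 0.0545% and 0.0531% of the UMIs of CAF-like cells and 0.0828% and 0.0664% of those of macrophage-like cells, with none of the 6 markers at 0, against 1.29% and 1.002% in melanoma-like cells. Erythroid markers summed to 131 CPM in the WT macrophage-like cells and to 0.522 CPM in the KO ones. The mix of cells inside the macrophage-like class differed too, by graph clusters made without the factors. Cluster c11, with Lyve1 and Cd163 among its top genes, held 5.94% of the class in WT hosts but 18.7% in KO hosts. Cluster c5 went the other way, from 9.41% to 3.37%. The larger clusters c0 (37.4% and 33.1%) and c8 (44.1% and 42.2%) differed by less. Values for the whole class pool these clusters. The part of these features in the values below was not tested except where a subset of cells is given.

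Each genotype was 1 library of pooled tumours, so differences between genotypes have no test. A log2 ratio is given with a 95% interval that covers counting error alone, and a member is called higher or lower when it passed 1.5-fold among genes with at least 50 UMIs over both libraries in the class.

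The factors took a similar share of the RNA in both libraries and were highest in the tumour cells. They made up 2.59% of the UMIs of WT and 2.60% of those of KO melanoma-like cells, 1.91% and 1.95% in CAF-like cells, and 1.58% and 1.496% in macrophage-like cells. In endothelial-like cells the shares were 2.17% and 1.87%, from 66 and 24 cells. Per cell this came to 294 and 284 UMIs of the 65 genes in melanoma-like cells, 75.1 and 79.3 in CAF-like cells and 37.4 and 34.5 in macrophage-like cells. Eef1a1, which encodes the factor that carries aminoacyl-tRNAs to the ribosome, supplied 28.6% and 26.6% of the members' UMIs in melanoma-like cells, 30.3% and 26.9% in CAF-like cells and 28.2% and 25.4% in macrophage-like cells. Its share was thus lower in the KO library in each of these classes.

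As a group the factors had medians close to 0 between the host genotypes in CAF-like, macrophage-like and melanoma-like cells. In CAF-like cells 47 members reached 50 UMIs and 18 did not, and the median log2 KO/WT was 0.02, beside -0.04 over all 4318 genes tested. Past 1.5-fold, 2 were higher (Eif4ebp1 and Eif6), where 9.38% of all genes were, and 2 were lower (Eif2b2 and Eef1e1), where 12.5% of all genes were. In macrophage-like cells 57 members reached the minimum, 8 did not, and the median was -0.03, beside -0.01 over 7062 genes. There 1 was higher (Eif4ebp1), beside 6.39% of all genes, and 1 lower (Eif4enif1), beside 6.32%. In melanoma-like cells 64 members, all but Eef1akmt3, had a median of -0.00, beside 0.02 over 11058 genes, with 2 higher (Eif4ebp1 and Eef1akmt4), beside 6.72% of all genes, and 0 lower, beside 3.61%. Endothelial-like cells had 30 members with enough UMIs and a median of -0.19, beside -0.02 over 1270 genes, and only Eif1a was past the fold, as higher, beside 9.53% of all genes, with 0 lower beside 9.92%. The middle 50% of the members' log2 ratios in melanoma-like cells ran from -0.13 to 0.13 and that of all genes from -0.17 to 0.22. Genes with fewer UMIs have wider counting error, and members and all genes were not matched for level, so the spreads are not comparable as they stand.

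**Figure D1:**
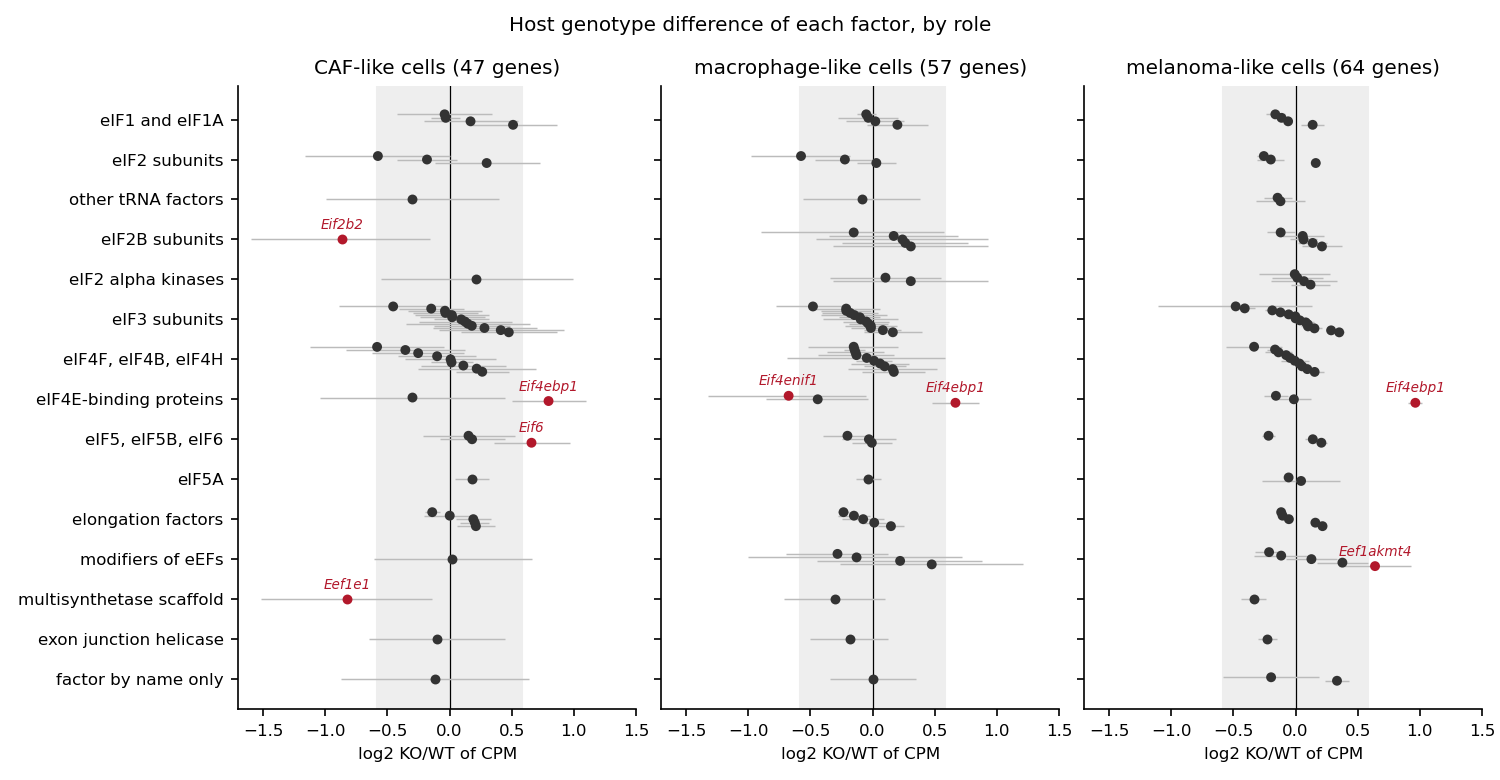
Log2 KO/WT of CPM (horizontal axis) for each factor with at least 50 UMIs, grouped by role, in CAF-like, macrophage-like and melanoma-like cells, with 95% counting intervals as grey lines. The grey band is within 1.5-fold, and the named red points outside it include Eif4ebp1 in all 3 panels, at 0.80, 0.67 and 0.96.

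Eif4ebp1 was the 1 member past 1.5-fold in each of these 3 classes, and it was higher in the KO library in all of them. The gene (ENSMUSG00000031490) lies on chr8:27260329-27276674 on the plus strand of GRCm38 and encodes 4E-BP1, the repressor of cap-dependent initiation. CAF-like cells had 189 CPM in WT and 329 CPM in KO, from 140 and 299 UMIs, a log2 difference of 0.80 (0.50 to 1.10). Macrophage-like cells had 161 and 255 CPM, from 415 and 488 UMIs, which gave 0.67 (0.48 to 0.86). In melanoma-like cells, whose own Atf4 was intact, the level was 199 CPM in WT and 388 CPM in KO, from 3918 and 7904 UMIs, a difference of 0.96 (0.91 to 1.02). Endothelial-like cells gave 187 and 128 CPM, but from 55 and 14 UMIs, and the interval of -1.51 to 0.31 held values of both signs. WT levels were thus close to each other in all 4 classes, and the KO levels above them in all but the class with the fewest cells.

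Atf4 itself, no member, was measured for comparison and checks the genotype labels. Its level was 255 CPM in WT and 42.9 CPM in KO CAF-like cells, 179 and 40.7 CPM in macrophage-like cells, and 218 and 9.12 CPM in endothelial-like cells. Melanoma-like cells differed by far less, with 227 and 207 CPM. Eif4ebp1, known as a target that ATF4 switches on, was thus higher in KO in CAF-like and macrophage-like cells, in which Atf4 mRNA was lower.

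**Figure D2:**
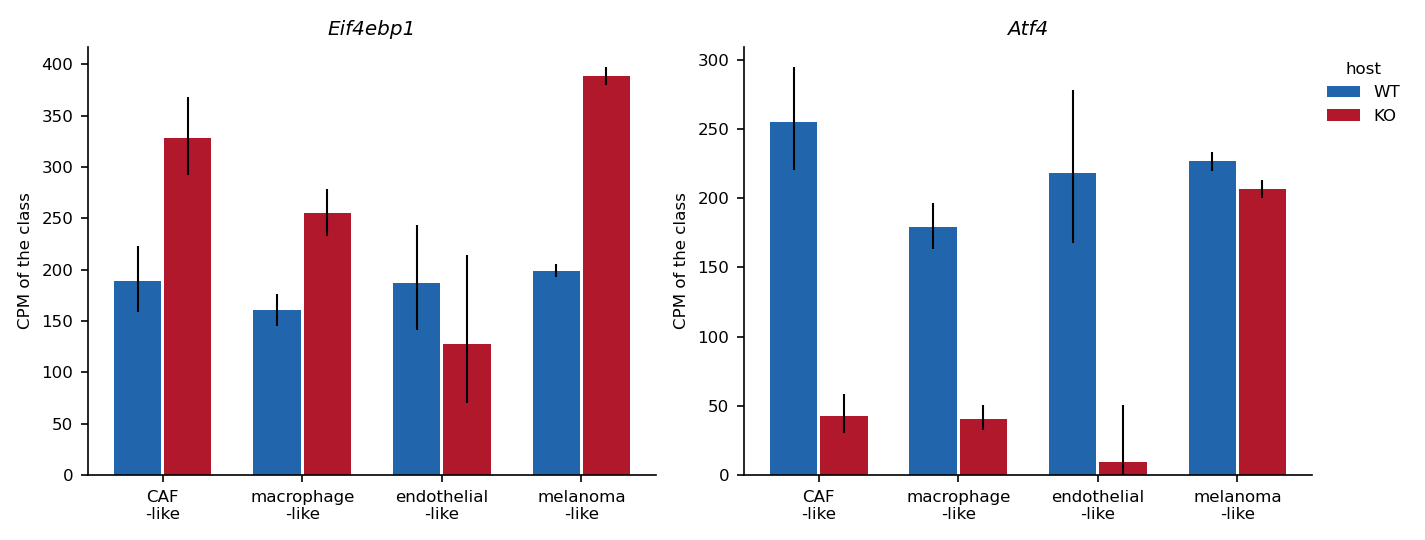
Level of Eif4ebp1 (left) and Atf4 (right) in CPM (vertical axes, from 0) by cell class, with WT hosts in blue and KO hosts in red and 95% Poisson intervals as black lines. Eif4ebp1 was higher in KO in CAF-like, macrophage-like and melanoma-like cells, while Atf4 was lower in KO in the 3 host classes and nearly level in melanoma-like cells.

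The difference in Eif4ebp1 was present inside clusters of cells made without the factors. Among melanoma-like cells the cluster that held most of them (c3, 1281 WT and 1007 KO cells) had 157 and 287 CPM, a difference of 0.87 (0.79 to 0.95), while its hypoxia list was 182 CPM in the WT library and 172 CPM in the KO library. A second cluster, c4, which like c0 and c7 took no name from its own markers so that the gate alone placed its cells, held 18.9% of WT and 39.7% of KO melanoma-like cells and had 369 and 527 CPM of Eif4ebp1 (0.51, 0.42 to 0.60), with hypoxia genes at 1178 and 867 CPM. The hypoxia list was thus nearly level in c3 and lower in KO in c4, and its part in the Eif4ebp1 difference was not tested. The smaller cluster c1 gave 1.10 (0.81 to 1.41) with hypoxia genes higher in KO, at 268 and 388 CPM, and c7 gave 0.32 (-0.09 to 0.73) with them lower, at 560 and 423 CPM. In macrophage-like cells the clusters c0, c5, c8 and c11 gave 0.94, 1.26, 0.65 and 0.63, and the interval of c11 reached just below 0, to -0.01. Hypoxia genes were higher in KO in all 4 of these, for example 308 and 740 CPM in c8, and their part in the difference was not tested.

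Host cells could also be divided by the sex they showed. Taking as the base those WT cells that had Xist but lacked Y-linked UMIs (194 CPM in CAF-like cells), Eif4ebp1 was at 272 CPM in the 57 KO CAF-like cells of the same kind, a difference of 0.48 (-0.01 to 0.96), and at 288 CPM in the 49 KO cells with a Y-linked UMI and no Xist (0.57, 0.13 to 0.99). Macrophage-like cells had 163 CPM in WT, 345 CPM in the 89 KO cells with Xist (1.08, 0.71 to 1.43) and 211 CPM in the 125 KO cells with a Y-linked UMI (0.37, -0.02 to 0.74). All of these CAF-like and macrophage-like subsets were above the WT level, 2 of 4 with an interval that reached below 0. Endothelial-like cells were too few to place, with 190 CPM in WT, 239 CPM in the KO cells with Xist (0.33, -1.06 to 1.48, from 7 UMIs) and 107 CPM in those with a Y-linked UMI (-0.83, -2.52 to 0.49, from 5 UMIs). Free RNA from melanoma cells also carries the transcript, and subtracting an assumed free share, which was between 4.71% and 7.47% of the UMIs in CAF-like and macrophage-like cells, left 0.79 and 0.63.

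**Figure D3:**
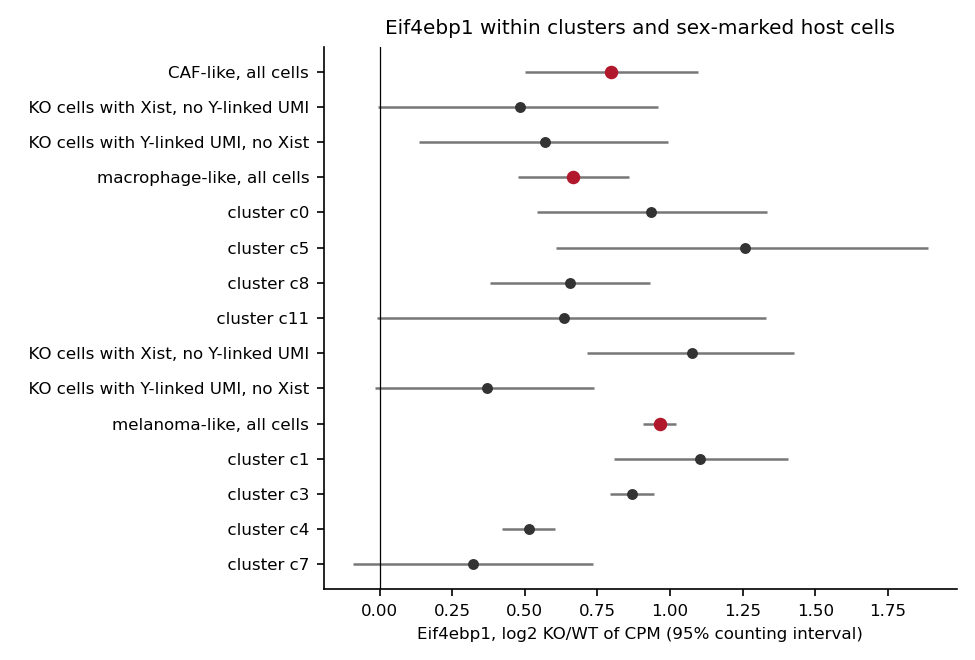
Log2 KO/WT of Eif4ebp1 (horizontal axis) with 95% counting intervals for the CAF-like, macrophage-like and melanoma-like classes in red and, below each, for its clusters and for KO host cells divided by Xist and Y-linked UMIs in black. All points of these 3 classes lie right of 0, from 0.32 in melanoma-like cluster c7 to 1.26 in macrophage-like cluster c5.

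Of the eIF4E-binding proteins grouped with Eif4ebp1, neither Eif4ebp2 nor Eif4enif1 was above 0 in macrophage-like or melanoma-like cells. In CAF-like cells both intervals spanned 0. Eif4ebp2 had 33 WT and 33 KO UMIs there (-0.30, -1.04 to 0.44), and Eif4enif1 had 20 and 25, below the minimum (0.02, -0.88 to 0.95). Eif4ebp2, which encodes a related repressor, was lower in KO macrophage-like cells, with 55.3 CPM in WT hosts and 40.7 CPM in KO hosts (-0.44, -0.86 to -0.03), and stood at 89.2 and 80.0 CPM in melanoma-like cells (-0.16). Eif4enif1 encodes 4E-T, which carries eIF4E to the nucleus and to processing bodies. Its level in macrophage-like cells was 26.7 CPM in WT and 16.7 CPM in KO (-0.68, -1.33 to -0.05), and in melanoma-like cells 43.1 and 42.7 CPM (-0.01). The binding partner itself, Eif4e (chr3:138526179-138559696), was level between genotypes, with 154 and 155 CPM in CAF-like cells (0.01, -0.36 to 0.38), 253 and 271 CPM in macrophage-like cells (0.10) and 165 and 169 CPM in melanoma-like cells (0.03, -0.04 to 0.10).

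The 10 genes of eIF4F and its helicase cofactors had 0 past 1.5-fold, with 9 measured well enough in CAF-like cells and 10 in both macrophage-like and melanoma-like cells. Over all genes, 9.38% were higher and 12.5% lower in CAF-like cells, 6.39% and 6.32% in macrophage-like cells, and 6.72% and 3.61% in melanoma-like cells. At those shares few of 10 genes would pass, so the count says little about this group. Its lowest gene in CAF-like cells was Eif4a2, a second form of the eIF4A helicase, with 90.5 and 60.4 CPM (-0.58, -1.12 to -0.05). Eif4g2, which encodes an eIF4G relative without the eIF4E-binding site, stood at 415 and 498 CPM there (0.26, 0.05 to 0.48). In melanoma-like cells the range ran from Eif4e3, a minor cap-binding form, at 18.1 and 14.4 CPM (-0.33, -0.56 to -0.11), to Eif4e2, which encodes a cap-binding repressor, at 141 and 156 CPM (0.15).

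The subunits of eIF2 differed between genotypes in no common direction. Eif2s1, the alpha subunit that the stress kinases phosphorylate, was at 274 and 230 CPM (WT and KO) in melanoma-like cells (-0.26, -0.31 to -0.20), at 145 and 124 CPM in macrophage-like cells (-0.22, -0.46 to 0.02) and at 108 and 133 CPM in CAF-like cells (0.30, -0.12 to 0.72). Eif2s2, the beta subunit, was at 577 and 646 CPM in melanoma-like cells (0.16, 0.13 to 0.20). The gamma subunit gene Eif2s3x, whose promoter holds the motif shown above, lies on chrX:94188707-94212862 on the minus strand and is known to escape X inactivation. It was lower in the KO library in every class, at 77.0 and 51.6 CPM in CAF-like cells (-0.58, -1.17 to 0.01), 63.8 and 42.8 CPM in macrophage-like cells (-0.58, -0.98 to -0.18) and 74.9 and 65.2 CPM in melanoma-like cells (-0.20, -0.31 to -0.09). Endothelial-like cells had 57.9 and 54.7 CPM from 17 and 6 UMIs, below the minimum, with an interval that spanned 0 (-0.08, -1.71 to 1.33).

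Levels of Eif2s3x were also compared between host cells divided by the sex they showed, from few KO UMIs. Among macrophage-like cells that had Xist but lacked Y-linked UMIs, the level was 67.8 CPM in WT and 68.9 CPM in KO. That was a difference of 0.02 (-0.80 to 0.76), from 134 and 17 UMIs. The KO cells with a Y-linked UMI and no Xist had 31.8 CPM, from 11 UMIs. Their level was lower than that of the WT cells by 1.09 on the log2 scale (a difference of -1.09, -2.13 to -0.21). CAF-like cells gave 79.6 CPM in WT, 65.4 CPM in KO cells with Xist and 53.0 CPM in KO cells with a Y-linked UMI, with both intervals spanning 0. Its Y-linked counterpart Eif2s3y, left out by the choice of genes, had 0 UMIs in all WT classes, which allows up to 1.16 CPM in macrophage-like cells, and 37 UMIs or 19.3 CPM in KO macrophage-like cells. KO macrophage-like cells with a Y-linked UMI and no Xist had 104 CPM of it, a level that the choice of those cells partly fixes since Eif2s3y is one of the Y-linked genes.

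The exchange factor eIF2B and the kinases of eIF2 alpha were thinly sampled outside the tumour cells. In CAF-like cells only Eif2b2 of the 5 eIF2B subunits reached 50 UMIs, and it was lower in KO, at 58.1 and 31.9 CPM from 43 and 29 UMIs (-0.87, -1.60 to -0.15). All 5 reached 50 UMIs in macrophage-like cells, none past 1.5-fold, beside 6.39% of all genes higher and 6.32% lower. Of these subunits 4 were above 0, among them Eif2b1 at 18.6 and 23.0 CPM (0.31, -0.32 to 0.93) and Eif2b5 at 27.9 and 33.4 CPM (0.26, -0.25 to 0.77). In melanoma-like cells the 5 subunits lay between -0.12 (Eif2b1) and 0.21 (Eif2b3). Outside CAF-like cells the difference in Eif2b2 was 0.17 (macrophage-like) and 0.06 (melanoma-like), and the contrast with CAF-like cells was not tested.

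Of the kinases, Eif2ak3 encodes PERK, which answers stress of the endoplasmic reticulum, and had 11 WT and 5 KO UMIs in CAF-like cells and 22 and 12 in macrophage-like cells. Eif2ak4 encodes GCN2, which senses uncharged tRNA, and had 1 and 7 UMIs in CAF-like cells and 19 and 7 in macrophage-like cells. A change in either was not detectable in the host classes at this depth. In melanoma-like cells Eif2ak3 stood at 11.5 and 12.04 CPM (0.07, -0.20 to 0.33) and Eif2ak4 at 10.3 and 10.2 CPM (-0.01, -0.29 to 0.28). Eif2ak1, which encodes the haem-regulated kinase, was at 18.6 and 23.0 CPM in macrophage-like cells (0.31, -0.32 to 0.93), and Eif2ak2, which encodes the kinase activated by double-stranded RNA, at 37.9 and 40.7 CPM (0.10). Eif2a, which can deliver the initiator tRNA in place of eIF2, was at 37.1 and 35.0 CPM in macrophage-like cells (-0.09) and at 67.2 and 60.8 CPM in melanoma-like cells (-0.14, -0.26 to -0.03).

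The genes of eIF3 had none past 1.5-fold between genotypes in any class, with 13 of 14 measured well enough in CAF-like and macrophage-like cells and all 14 in melanoma-like cells. Over all genes, 9.38% were higher and 12.5% lower in CAF-like cells, 6.39% and 6.32% in macrophage-like cells, 6.72% and 3.61% in melanoma-like cells and 9.53% and 9.92% in endothelial-like cells. Few of 14 genes would pass at those shares. The medians of the eIF3 genes were 0.09, -0.10 and 0.02. In CAF-like cells the highest were Eif3b, a core subunit, at 122 and 169 CPM (0.48, 0.09 to 0.87), and Eif3g at 74.3 and 98.9 CPM (0.41, -0.09 to 0.92). Eif3l was the lowest, at 132 and 96.7 CPM (-0.45, -0.89 to -0.02). In macrophage-like cells 11 of 13 were below 0, where the median over all genes was -0.01. The lowest was Eif3j1, the loosely attached subunit, at 106 and 75.7 CPM (-0.48, -0.78 to -0.18). Melanoma-like cells also had Eif3j1 low, at 143 and 108 CPM (-0.41, -0.49 to -0.33), and Eif3c high, at 439 and 560 CPM (0.35, 0.31 to 0.39). Eif3j2, a near copy of Eif3j1 whose reads could be hard to tell from those of Eif3j1, was at 2.75 and 1.97 CPM (-0.48, -1.11 to 0.13).

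Late initiation held the second gene called higher in CAF-like cells. Eif6 (ENSMUSG00000027613, chr2:155819832-155826925, minus strand) encodes the factor that keeps large ribosomal subunits from joining too early. Its WT and KO levels were 186 and 294 CPM in CAF-like cells (0.66, 0.36 to 0.97), 159 and 156 CPM in macrophage-like cells (-0.03, -0.25 to 0.19) and 187 and 206 CPM in melanoma-like cells (0.14, 0.07 to 0.20). Within sex-marked CAF-like cells it was 183 CPM in WT, 257 CPM in KO cells with Xist (0.49, -0.02 to 0.98) and 310 CPM in KO cells with a Y-linked UMI (0.76, 0.34 to 1.18). Eif5, which encodes the factor that triggers GTP hydrolysis on eIF2, was at 424 and 489 CPM in melanoma-like cells (0.21, 0.17 to 0.25), and Eif5b, which encodes the factor that joins the subunits, at 315 and 271 CPM (-0.22, -0.27 to -0.16). Eif1ax, an X-linked eIF1A gene whose reads could be hard to tell from those of Eif1a, was at 147 and 210 CPM in CAF-like cells (0.51, 0.16 to 0.86), at 130 and 127 CPM in macrophage-like cells (-0.03) and at 164 and 152 CPM in melanoma-like cells (-0.11). Within sex-marked CAF-like cells Eif1ax was at 146 CPM in WT, 176 CPM in KO cells with Xist (0.27, -0.34 to 0.84) and 231 CPM in KO cells with a Y-linked UMI (0.66, 0.17 to 1.14). Eif1a reached the fold only in endothelial-like cells, at 102 and 182 CPM from 30 and 20 UMIs.

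The 5 elongation factors differed by less than 1.5-fold in all classes. At the shares over all genes given above, few or none of 5 genes would pass. Eef1a1 (ENSMUSG00000037742, chr9:78478449-78489151, minus strand), whose many processed copies in the genome could share reads with it, was lower in KO in each class, at 5779 and 5247 CPM in CAF-like cells (-0.14, -0.20 to -0.08), 4471 and 3803 CPM in macrophage-like cells (-0.23, -0.28 to -0.19) and 7420 and 6901 CPM in melanoma-like cells (-0.10, -0.12 to -0.09). Eef2 (ENSMUSG00000034994, chr10:81176631-81182498, plus strand), which moves the ribosome along the mRNA, was higher in KO in the same 3 classes, at 963 and 1100 CPM (0.19, 0.05 to 0.33), 666 and 738 CPM (0.15, 0.05 to 0.25) and 1066 and 1239 CPM (0.22, 0.19 to 0.24). The 3 genes of the eEF1 exchange complex had no shared direction, since Eef1b2 was at 1397 and 1609 CPM in CAF-like cells (0.20) and 801 and 808 CPM in macrophage-like cells (0.01), and Eef1g at 777 and 900 CPM (0.21, 0.06 to 0.37) and 456 and 411 CPM (-0.15, -0.28 to -0.02). Eif5a, whose hypusine-bearing product helps ribosomes through difficult peptide bonds, was at 989 and 1120 CPM in CAF-like cells (0.18, 0.04 to 0.32), 736 and 719 CPM in macrophage-like cells (-0.03) and 1519 and 1461 CPM in melanoma-like cells (-0.06).

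Eef2k, the other gene with the motif in its promoter, had the largest ratio of the elongation regulators measured in macrophage-like cells. It had 12.8 CPM in WT and 17.8 CPM in KO there, with an interval that spanned 0 (0.48, -0.26 to 1.21) and a ratio of -0.80 in host cells with Xist alone, 17.2 and 22.3 CPM in melanoma-like cells (0.38, 0.17 to 0.58), and 6 and 17 UMIs in CAF-like cells. Eef1akmt4, which encodes a lysine methyltransferase of eEF1A, was at 8.24 and 12.8 CPM in melanoma-like cells (0.64, 0.35 to 0.93). Eef1e1 encodes a scaffold protein of the multisynthetase complex and was lower in KO in all 3 classes, at 62.2 and 35.2 CPM in CAF-like cells (-0.82, -1.52 to -0.14), 53.4 and 43.3 CPM in macrophage-like cells (-0.30, -0.71 to 0.10) and 90.7 and 71.8 CPM in melanoma-like cells (-0.34, -0.44 to -0.24). Eif1ad carries an eIF1A-like domain but is an initiation factor by name only, and stood at 77.6 and 97.8 CPM in melanoma-like cells (0.33, 0.24 to 0.43).

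Other genes of the pathway showed where Eif4ebp1 stood among them. Of 12 regulators and targets of the integrated stress response that are no members, 9 could be measured in CAF-like cells, with 0 higher and 3 lower (Atf4, Ppp1r15a and Atf5) and a median of -0.23. In macrophage-like cells 2 of 8 were higher, Asns, which encodes asparagine synthetase, and Nupr1, a stress-induced gene that went from 74.7 to 171 CPM, and 2 were lower, Atf4 and Ppp1r15b. Melanoma-like cells had 5 of 12 higher and none lower, with a median of 0.50, and these were Ddit3 (30.1 and 50.3 CPM), Trib3 (11.6 and 38.8 CPM), Atf5 (13.6 and 52.0 CPM), Asns (111 and 192 CPM) and Nupr1 (19.8 and 103 CPM). In endothelial-like cells 2 could be measured, Ppp1r15a as higher and Atf4 as lower. The 13 regulators of mTOR and the cap had 0 past 1.5-fold in any class, with 5, 11, 1 and 13 of them measured in CAF-like, macrophage-like, endothelial-like and melanoma-like cells and medians of -0.08, 0.06, -0.53 and 0.04. Few of 13 genes would pass at the shares over all genes given above.

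Further parts of the translation machinery were counted in the same way. Among 16 other translation genes, such as release factors, 12 were measured in CAF-like cells with 1 lower (Abce1, a ribosome recycling factor), 14 in macrophage-like cells and 15 in melanoma-like cells with none past the fold, and 4 in endothelial-like cells with 1 higher (Gspt1, a release factor). The medians were 0.13, -0.03, -0.10 and -0.07 in that order. A list this short would have few genes past the fold at the shares over all genes given above. The 10 members with a 5′ terminal oligopyrimidine tract, by which mTOR governs their translation, had medians of 0.02, -0.04, 0.02 and 0.04 and 0 past 1.5-fold in any class. Few of 10 genes would pass at the shares over all genes given above. Of 92 ribosomal protein genes, 83, 84, 88 and 76 were measured, with medians of 0.15, -0.02, 0.12 and -0.20. None were higher, beside 9.38%, 6.39%, 6.72% and 9.53% of all genes. Lower were 4, 1, 0 and 7, beside 12.5%, 6.32%, 3.61% and 9.92% of all genes. The hypoxia genes had 6 of 6 higher in CAF-like cells, 6 of 8 in macrophage-like cells and 2 of 8 in melanoma-like cells, and the cycling genes 9 of 11, 4 of 12 and 0 of 12 lower, with medians of 1.45, 0.90 and 0.22 for the hypoxia genes and -0.85, -0.53 and -0.37 for the cycling genes.

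Larger differences were found between cell classes of the same tumour. Each library was compared on its own, and a member was called when it passed 1.5-fold the same way in both. Macrophage-like cells had 34 of 63 members lower than melanoma-like cells, where 41.4% of all genes were, and 1 higher, where 17.5% of all genes were, with medians of -0.68 in WT and -0.80 in KO beside -0.51 and -0.54 over all genes. CAF-like cells had 22 of 63 lower, beside 34.1% of all genes, and 0 higher, beside 15.8%, with medians of -0.51 and -0.49 beside -0.40 and -0.42. Among genes that reached the minimum of UMIs, members were thus less often called higher than all genes in either host class. The count of lower members in CAF-like cells was near the background. That minimum was met over the host class and melanoma-like cells together, and its part in these counts was not tested. Eif2c5 was called lower from 0 WT and 1 KO CAF UMIs. Eef1akmt3, with 10 WT and 7 KO CAF UMIs, missed the minimum. Its log2 ratios were 4.73 (3.31 to 6.15) in WT and 3.71 (2.12 to 5.17) in KO. The free RNA assumed above was not subtracted from the ratios between classes.

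The 1 member above the tumour level in macrophage-like cells was Eif4e, the cap-binding protein. Its level was 253 CPM in WT and 271 CPM in KO macrophage-like cells, against 165 and 169 CPM in melanoma-like cells, log2 ratios of 0.62 (0.49 to 0.74) and 0.68 (0.55 to 0.82). CAF-like cells had 154 and 155 CPM, below the macrophage level and close to that of the tumour cells (-0.10 and -0.12). Its partners did not share this, since Eif4g1, the main eIF4G scaffold, was at 138 and 144 CPM in macrophage-like cells against 355 and 337 CPM (-1.37 and -1.23), and Eif4a1 at 1015 and 918 CPM against 890 and 863 CPM (0.19 and 0.09). Eif4ebp1 was at 161 and 255 CPM in macrophage-like cells against 199 and 388 CPM (-0.31 and -0.61). Over all genes the medians of this contrast were -0.51 in WT and -0.54 in KO, so the repressor mRNA was not particularly low there. Other members near the top were Eif1a (0.32 and 0.39), Eif4e3 (0.18 and 0.46), Eif2ak2 (0.27 and 0.25) and Eef1akmt4 (0.54 and -0.23).

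All 5 elongation factors and all 5 eIF2B subunits were lower in macrophage-like than in melanoma-like cells past 1.5-fold in both libraries, beside 41.4% of all genes. Eef1b2, the nucleotide exchange subunit of eEF1, was at 801 and 808 CPM against 2125 and 2373 CPM, ratios of -1.41 (-1.47 to -1.34) and -1.55 (-1.63 to -1.48). Eef1a1 was lower by less, at -0.73 and -0.86, and Eef2 at -0.68 and -0.75. The eIF2B subunit gene Eif2b1 was at 18.6 and 23.0 CPM against 65.6 and 60.4 CPM (-1.82 and -1.39). Eif5a stood at 736 and 719 CPM against 1519 and 1461 CPM (-1.04 and -1.02), and Eif5a2, its rarer paralogue, at -2.44 and -1.05 from 4 and 8 macrophage UMIs. Eif2d (-1.55 and -1.07) and the non-coding Eif2c5, with 1 and 3 macrophage UMIs (-4.01, -9.33 to -1.51, and -1.80, -4.10 to -0.22), were also among the lowest.

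In CAF-like cells the distance from the tumour cells was uneven across the roles. Of the eIF3 genes, 10 of 14 in WT and 9 of 13 in KO were lower, beside 43.6% and 43.7% of all genes in those libraries, among them Eif3c at 207 and 234 CPM against 439 and 560 CPM (-1.09 and -1.26). The elongation factors were nearer to the tumour cells than in macrophage-like cells, with Eef2 at -0.15 and -0.17, Eef1a1 at -0.36 and -0.40 and Eef1b2 at -0.60 and -0.56. Eif2b1 (-1.51 and -1.26) and Eif2b5 (-1.18 and -1.28) were low again, and Eif2s1 was at -1.34 (-1.68 to -1.03) and -0.79 (-1.06 to -0.53). Low counts decided Eif2ak4 (-2.93 and -0.41, from 1 and 7 CAF UMIs) and Eif2d (-2.07 and -0.34, from 4 and 15). The highest were Eif1a at 138 and 155 CPM against 95.2 and 105 CPM (0.53 and 0.56), Eif4g3 (0.43 and 0.66), Eef1akmt2 (0.66 and 0.55), Eif6 (-0.00 and 0.52) and Eef1akmt4 (0.98 and -0.38), of which the first 3 were above the tumour cells in both libraries. Eef1akmt3, a lysine methyltransferase of eEF1A, had 13.5 and 7.69 CPM in CAF-like cells against 0.508 and 0.590 CPM in melanoma-like cells, from 10 and 7 CAF UMIs and 10 and 12 melanoma UMIs, too few for the 50 UMIs required.

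**Figure D4:**
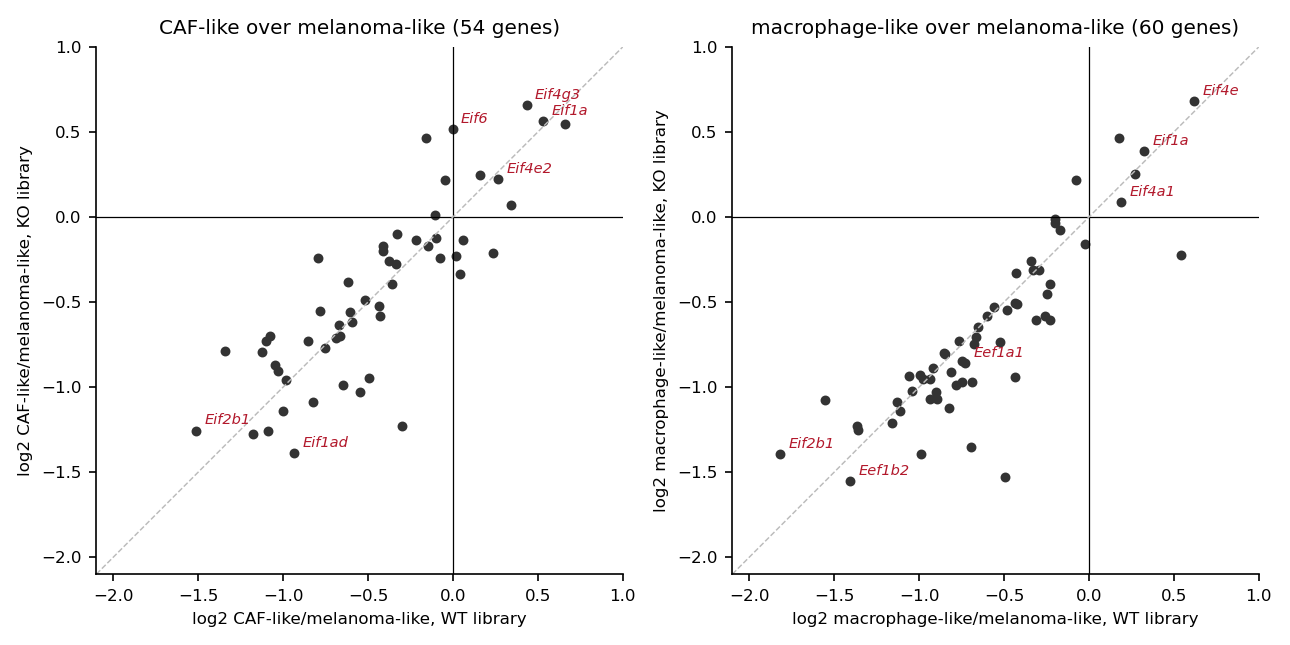
Log2 ratio of CAF-like (left, 54 factors) and macrophage-like (right, 60 factors) over melanoma-like cells in the WT library (horizontal axis) and the KO library (vertical axis), for factors with at least 10 host-cell UMIs in each library. The dashed line marks equal ratios. Most points lie below 0 on both axes, with Eif4e at 0.62 and 0.68 the highest on the right.

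Between cycling and non-cycling melanoma-like cells, members passed the fold about as often as all genes did or less. Cells with at least 2000 UMIs were called cycling with UMIs of at least 2 cycling genes (1516 WT and 1505 KO cells) and non-cycling with none (54 and 130 cells). The non-cycling cells were shallower, with medians of 7199 and 8029 UMIs against 11974 and 11703, and their hypoxia genes were higher, at 1153 and 1128 CPM against 323 and 376 CPM, and the part of either in the differences was not tested. The members' median ratio was 0.16 in WT and 0.24 in KO, beside 0.08 and 0.10 over all genes. Of 63 members 7 were higher in cycling cells in both libraries, beside 12.4% of all genes, and 1 was lower, beside 5.69%.

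The 1 lower member was Eif4ebp1, which was higher in the cells outside the cycle in both libraries. It had 189 CPM in cycling and 341 CPM in non-cycling WT cells, a ratio of -0.85 (-1.11 to -0.59), and 356 and 647 CPM in KO cells, a ratio of -0.86 (-0.98 to -0.74). The cycling cells of the KO library and the non-cycling cells of the WT library, with 130 UMIs of the gene, thus stood at similar levels. Of the 7 higher members, Eif5a had 1555 CPM in cycling and 769 CPM in non-cycling WT cells (1.02, 0.85 to 1.19) and 1521 and 961 CPM in KO cells (0.66, 0.57 to 0.76), and Eif4g1 gave 1.02 and 0.88. Eif3b, Eif4h and the exon junction helicase gene Eif4a3 lay between 0.60 and 0.71 in both libraries. Eif2b4 (1.85, 0.30 to 4.14, and 0.88) and Eif4enif1 (1.46 and 0.68) rested on 3 and 6 non-cycling WT UMIs.

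Elongation factors were divided by this contrast. Eef2 was lower in cycling cells, at 1046 and 1620 CPM in WT (-0.63, -0.75 to -0.51) and 1214 and 1439 CPM in KO (-0.24, -0.32 to -0.17), as was Eef1a1 (-0.41 and -0.22) and Eef1b2 (-0.31 and -0.15). Eef1g (0.69 and 0.37) and Eef1d (0.61 and 0.34), which belong to the same exchange complex as Eef1b2, were higher. Further genes at the low end were Eif4a2 (-0.79 and -0.52), Eif4e3 (-0.70 and -0.45), Eif2a (-0.85 and -0.28) and Eef2k (-0.51 and -0.53), all below 0 in both libraries. The intervals of Eif4e3 and Eef2k spanned 0 in both libraries, and that of Eif2a did in KO (-0.62 to 0.08). Eif4e3 and Eef2k rested on 11 and 9 non-cycling WT UMIs. Eif5a2 lay on opposite sides of 0, with -0.33 in WT from 4 non-cycling UMIs and 3.25 (0.75 to 8.56) in KO from 1.

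**Figure D5:**
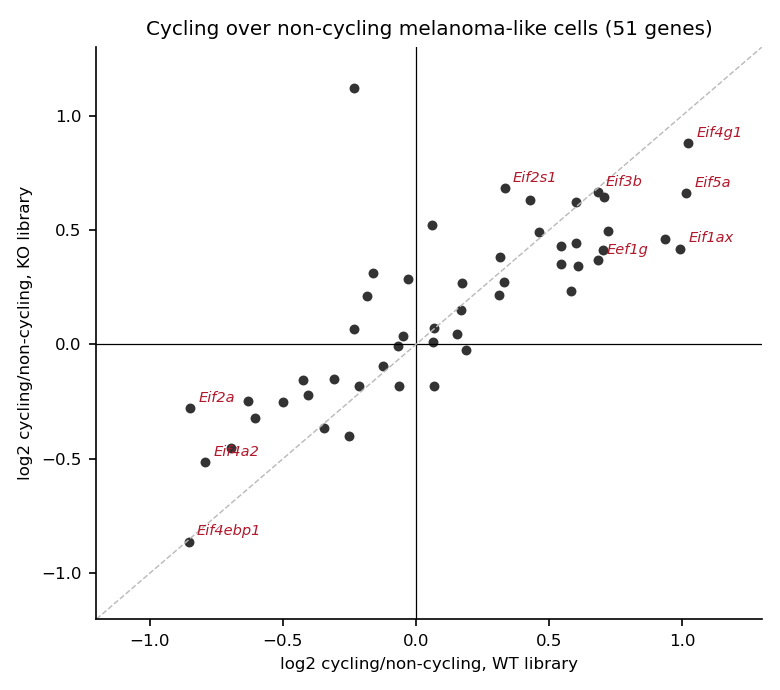
Log2 ratio of cycling over non-cycling melanoma-like cells in the WT library (horizontal axis) and the KO library (vertical axis) for the 51 factors with at least 10 UMIs in the non-cycling cells of each library. The dashed line marks equal ratios. Eif4ebp1 lies lowest on both axes, at -0.85 and -0.86, and Eif4g1 and Eif5a lie at the upper right.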

How the data were processed

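The authors deposited raw UMI counts per gene and cell, made with Cell Ranger 3.1.0 per the labels, on GRCm38. As in the study, cells needed 200 to 5000 genes and a mitochondrial share of 7.5% or less. A cell joined a class with at least 4 distinct gate markers and 0.3% of its UMIs in them, limits set after the data were seen. Of kept cells, 134 WT and 48 KO were mixed and 623 and 565 ungated, and T or NK cells (6 and 4 by the gate) were not described. The cluster named from T or NK markers held 81 WT and 32 KO cells, at a median of 691 UMIs. The libraries shared 10 barcodes. Doublets were left in, except in an alternative that removed 114 WT and 50 KO cells called by Scrublet. Summed UMIs of each class in a library were scaled to CPM, with exact Poisson and conditional binomial intervals (scipy 1.17.1), checked on simulated data. Graph clusters (scanpy 1.11.5) left out the members. TMM factors came from edgeR 4.0.16. Library totals were 38417113 and 38290024 UMIs over 6304 and 5474 barcodes. Gene positions came from GENCODE.

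Members and gene lists were chosen with earlier results of these data known. Genes were named by rule, as the 5 highest and 5 lowest members of each comparison with at least 50 UMIs, plus Eif4ebp1, Eif2ak3, Eif2ak4, Eif2s1, Eif2s3x, Eif4e, Eif5a, Eef1a1, Eef2 and Eef2k. Further genes that round off a role or a class, such as Eif4g1 and Eif4a1, were chosen after their values were seen. Alternatives changed cell filters, gates, scaling, depth, sex of host cells and cycling. Subtraction of free RNA and the values within clusters and sex sets were added after seeing the data.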

Additional observations from a re-analysis of the deposited data

Results flagged for a closer look

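Eif1ax, Eif5a and Eef1g differed between genotypes in opposite directions in different cell classes, with intervals that all left out 0. The log2 KO/WT of Eif1ax was 0.51 in CAF-like cells and -0.11 in melanoma-like cells. For Eif5a it was 0.18 and -0.056 in the same classes, and for Eef1g 0.21 in CAF-like cells, -0.15 in macrophage-like cells and -0.054 in melanoma-like cells. With 1 library per genotype the differences between classes were not tested, and the values in melanoma-like cells are small. Against WT CAF-like cells with Xist, the X-linked Eif1ax was at 0.27 in KO CAF-like cells with Xist, with an interval that spanned 0 (-0.34 to 0.84). In KO CAF-like cells with a Y-linked UMI it was at 0.66 (0.17 to 1.14).

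Eif2s3y, which the choice of genes left out, had 14.3 CPM in KO CAF-like cells and 19.3 CPM in KO macrophage-like cells, and 0 UMIs in the WT cells of both classes, which allows up to 4.05 and 1.16 CPM.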

How the results depend on the processing

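The higher level of Eif4ebp1 in KO kept its direction under all alternatives in CAF-like (0.48 to 0.99), macrophage-like (0.58 to 1.08) and melanoma-like cells (0.91 to 1.03). It moved beyond its counting interval with a mitochondrial limit of 15% (0.91) and with cells of 2000 to 5000 UMIs (1.03) in melanoma-like cells, and with Xist-only host cells in CAF-like (0.48), macrophage-like (1.08) and endothelial-like cells (0.33, from 7 KO UMIs). Eif2s3x in macrophage-like cells went to 0.024 with Xist-only cells, and in melanoma-like cells to -0.59 with 2000 to 5000 UMIs and to -0.42 without cycling UMIs. The members' median in macrophage-like over melanoma-like cells moved to -0.44 in WT with TMM. In cells of 2000 to 5000 UMIs the WT median of cycling over non-cycling cells was -0.06. Signs turned in melanoma-like cells for Eef1e1 (0.27) and Eef2 (-0.10) at 2000 to 5000 UMIs, for Eef2 (-0.14), Eif3j1 (0.086) and Eif5a (0.28) without cycling UMIs, and in CAF-like cells for Eif3l (0.059) with Xist-only cells. The causes were not tested. The count of members past 1.5-fold ranged from 2 to 6 in CAF-like cells (4 in the main setting), from 1 to 5 in macrophage-like cells (2) and from 2 to 5 in melanoma-like cells (2). Of the other values named, 459 stayed within their error with their sign and 15 with the other sign, while 32 moved beyond it with their sign and 5 with the other. Those 5, each from a value whose interval spanned 0, were Eef2k (-0.80), Eif2ak4 (0.68) and Eif5a (0.18) in macrophage-like cells with Xist-only cells, and Eif4e in melanoma-like cells at 2000 to 5000 UMIs (-0.35) and without cycling UMIs (-0.07). No paired analysis was possible because the design has 1 library of each genotype.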
